A study of Mus musculus with 16 samples.

Results

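The genes that flank the targeted *Lrrc10* locus on chromosome 10 were examined in the ventricles of neonatal mice with and without *Lrrc10*. The members were all protein-coding genes whose start lies within 10 Mb of the start of *Lrrc10* on either side, taking the lowest coordinate of a gene as its start (chromosome 10, 106881246 to 126881246, GRCm39) and whose counts summed to at least 10 in each of the 4 groups. The annotation holds 101 protein-coding genes in this window. Of these, 76 reached the minimum, and 73 remained after the rule left out 3 genes by name. The other 25 did not reach it, of which 3 were also left out by name and 6 of the remaining 22 had 0 counts in every library. The 73 genes are part of 20159 genes tested, with 30 at lower and 43 at higher coordinates than *Lrrc10*. They were compared with 634 tested protein-coding genes elsewhere on chromosome 10 and 13880 on other chromosomes.

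Bulk RNA of whole ventricles came from 16 mice, 4 per group. WT SH were wild type C57BL/6J mice after sham surgery, and KO SH were *Lrrc10*-/- mice after sham surgery. WT MI and KO MI were mice of the same genotypes after myocardial infarction (MI). Every mouse had its surgery at postnatal day 1, and hearts were taken 7 days after it. The labels give no other allele or agent for any group. MI was made by tying a coronary artery, while sham mice had the chest opened with neither a tie nor exposure of the heart. The tissue taken was the full ventricles and not the infarct alone. The deletion is present in all tissues, on a C57BL/6 background. The WT mice were bought from a supplier, and whether they were littermates of the KO mice is not given in the sources used here. Replicates are named by their label numbers, which are 1, 2, 3 and 7 in KO MI. The total count ranged from 37842114 to 57470159 in WT SH, from 37962875 to 50123038 in KO SH, from 43166794 to 46184203 in WT MI and from 33783874 to 49334247 in KO MI. Levels are given in CPM, counts scaled to a common library size after TMM normalization.

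LRRC10 is a leucine-rich repeat protein of cardiomyocytes. Its gene is a single exon that sits in a gene-dense stretch among housekeeping genes (a chaperonin subunit, factors of mRNA processing), regulators of p53 and lysozyme genes. Genes next to a targeted gene are inherited together with it and may share regulatory DNA with it, so the comparison asks whether the neighbours differed between KO and WT and whether such differences depended on distance.

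The study's methods describe the groups as balanced for sex. *Xist*, which is transcribed from the inactive X chromosome of females, was above 900 CPM in 6 libraries (KO SH replicates 1 and 2, WT MI replicates 2 and 4, and KO MI replicates 1 and 2) and under 25 CPM in the other 10, which include every WT SH library. KO and WT sham hearts therefore differed in this marker as well as in genotype. The counts of called members in both KO comparisons were the same when the *Xist* level was a term of the fit. The cardiomyocyte list, with *Myh6* the most abundant of its 8 genes, summed to between 27100 and 41800 CPM in every library. Of the 5 lung epithelial genes, 0 reached the minimum count, which is needed in every group. Their sum was 0.203, 0.532, 0.0385 and 1.04 CPM in KO MI and at most 0.104 CPM in the libraries of the other groups. Libraries of KO MI differed more from each other than those of the other groups, with a chi-square per degree of freedom over genes of 18.6 to 56.4 for its pairs and of 4.34 to 20.3 for the pairs within the others.

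*Lrrc10* itself (ENSMUSG00000060187, + strand, chr10:116881246-116882673) checked the labels. It was at 35.6, 29.1, 30.7 and 27.5 CPM in the WT SH libraries and at 26.3, 29.2, 28.1 and 27.1 CPM in the WT MI libraries. All 8 KO libraries had 0 counts. With 3 counts over the pooled KO group as the floor, KO levels were at least 1720-fold lower after sham surgery and at least 1740-fold lower after MI. In CPM per kilobase of exon, the mean level of *Lrrc10* was 21.5 in WT SH and 19.3 in WT MI hearts. In the same WT groups the closest protein-coding member, *Cct2*, was at 14.2 and 13.8, and *Best3* on the other side at 0.14 and 0.142.

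The 250 bases before the start of *Lrrc10*, of the nearest protein-coding member on the same strand (*Best3*) and of the only 2 members that were called between KO and WT (*Wif1* and *Slc16a7*) are shown so that the targeted and the differing genes can be set side by side. They were read from GRCm39 at chr10:116880996-116881245 (+), chr10:116821969-116822218 (+), chr10:120869615-120869864 (+) and chr10:125164885-125165134 (-). Capitals mark the TATA motif TATAAA and the GC box core GGGCGG on either strand.
Lrrc10: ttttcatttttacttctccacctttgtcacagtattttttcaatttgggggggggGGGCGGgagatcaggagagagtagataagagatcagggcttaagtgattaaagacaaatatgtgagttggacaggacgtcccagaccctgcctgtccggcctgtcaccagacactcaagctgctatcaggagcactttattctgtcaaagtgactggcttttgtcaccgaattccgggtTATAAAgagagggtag
Best3: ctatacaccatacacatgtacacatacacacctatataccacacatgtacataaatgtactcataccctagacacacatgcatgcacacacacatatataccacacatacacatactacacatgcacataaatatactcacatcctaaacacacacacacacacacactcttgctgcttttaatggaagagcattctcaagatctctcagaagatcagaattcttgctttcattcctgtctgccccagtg
Wif1: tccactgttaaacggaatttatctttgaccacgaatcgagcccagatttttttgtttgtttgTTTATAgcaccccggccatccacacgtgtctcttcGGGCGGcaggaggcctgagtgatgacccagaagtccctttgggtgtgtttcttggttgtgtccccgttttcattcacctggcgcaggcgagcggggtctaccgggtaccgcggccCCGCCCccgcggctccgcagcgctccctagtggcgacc
Slc16a7: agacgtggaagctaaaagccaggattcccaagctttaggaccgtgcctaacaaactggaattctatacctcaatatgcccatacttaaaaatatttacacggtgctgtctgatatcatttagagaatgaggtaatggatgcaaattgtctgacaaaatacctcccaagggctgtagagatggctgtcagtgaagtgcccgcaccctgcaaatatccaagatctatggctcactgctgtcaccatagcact
The *Lrrc10* window held both motifs on its own strand, and it overlaps an exon of the lncRNA *Gm10747*. *Wif1* had 1 TATAAA match on the opposite strand and 1 GGGCGG match on each strand, and the windows of *Best3* and *Slc16a7* had no match. TATAAA was found before 6 of the 73 members (8.22%) and before 11.9% of 21770 protein-coding genes. GGGCGG was found before 38 of them (52.1%) and before 36.3% of all.

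Among the 4 members nearest to *Lrrc10* on each side, none was called between KO and WT. Of all genes, 5.01% were called in sham and 1.73% in MI hearts. A call needed an adjusted p under 0.1 and a log2 fold change of 0.5 or more in size. The p-values came from edgeR's quasi-likelihood test and were adjusted over all genes by Benjamini-Hochberg. *Cct2*, a subunit of the cytosolic chaperonin, has its 3' end 4223 bases beyond *Lrrc10* and is transcribed toward it. Its levels were 57, 53, 49.1 and 47.3 CPM in WT SH, 49.7, 47.7, 50.8 and 48.5 in KO SH, 48.1, 53.9, 49.9 and 48.4 in WT MI, and 51.7, 57.8, 52.6 and 48.8 in KO MI. The groups overlapped in both comparisons. The log2 fold change of KO against WT was -0.07 (95% interval -0.20 to 0.07) in sham and 0.07 (-0.06 to 0.21) in MI hearts. A change of the size of the call threshold lies outside both intervals.

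*Best3*, a bestrophin family anion channel gene, ends 15570 bases before *Lrrc10* on the same strand. It was low, at 1.12, 1.12, 1.06 and 0.846 CPM in WT SH, 0.812, 1.30, 0.897 and 0.866 in KO SH, 1.18, 1.16, 0.855 and 1.04 in WT MI, and 1.4, 1.28, 0.906 and 1.1 in KO MI. Levels overlapped throughout. The log2 fold changes were -0.10 (-0.52 to 0.32) and 0.14 (-0.26 to 0.55), so a difference just past the threshold was not excluded.

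*Frs2*, an adaptor of fibroblast growth factor receptors, has its 3' end 22657 bases beyond *Lrrc10*. Sham levels were 32.0, 34.6, 33.7 and 32.9 CPM in WT and 37.8, 39.2, 37.5 and 35.5 CPM in KO. Every KO SH library was above every WT SH library. The log2 difference was 0.17 (SE 0.06, adjusted p = 0.0787), under the fold threshold. In MI hearts WT levels were 33.3, 34.1, 35.4 and 35.8 CPM and KO levels 32.5, 29.5, 32.1 and 35.6 CPM. There the groups overlapped and the log2 fold change was -0.10 (SE 0.06, adjusted p = 0.552). The difference between these effects was -0.27 (SE 0.08, unadjusted p = 0.00424), with an adjusted p of 0.202 in edgeR's quasi-likelihood test.

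*Rab3ip*, an exchange factor for the small GTPase Rab8, was at 33.0, 28.6, 30.3 and 29.8 CPM in WT SH and 24.8, 28.3, 27.5 and 24.5 CPM in KO SH. All KO SH values were lower, and the exact permutation test (two-sided) gave p = 0.0286, the smallest that 4 libraries against 4 allow. Across all genes the difference of -0.21 (SE 0.10) had an adjusted p of 0.228 in edgeR. In MI hearts it was -0.07 (SE 0.10, adjusted p = 0.86). *Cnot2*, a subunit of the CCR4-NOT deadenylase, had the narrowest interval of these genes. Its log2 fold change was 0.00 (-0.10 to 0.10) in sham hearts. In MI hearts it was at 35.3, 36.3, 36.4 and 36.8 CPM in WT and at 34.5, 32.1, 34.1 and 30.8 CPM in KO. All KO MI libraries were lower, with a log2 fold change of -0.14 (-0.24 to -0.04, adjusted p = 0.183).

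*Yeats4*, a chromatin reader, had log2 fold changes of -0.10 (SE 0.09) in sham and -0.03 (SE 0.08) in MI hearts. *Myrfl*, a myelin regulatory factor-like gene, averaged 0.487 CPM, and its intervals of -0.47 to 0.69 and -0.44 to 0.71 left the threshold inside. *Lyz2*, the lysozyme of macrophages and neutrophils, had log2 fold changes of -0.04 (SE 0.23) and 0.03 (SE 0.21). None of these 3 differed from WT beyond the spread between libraries.

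**Figure D1:**
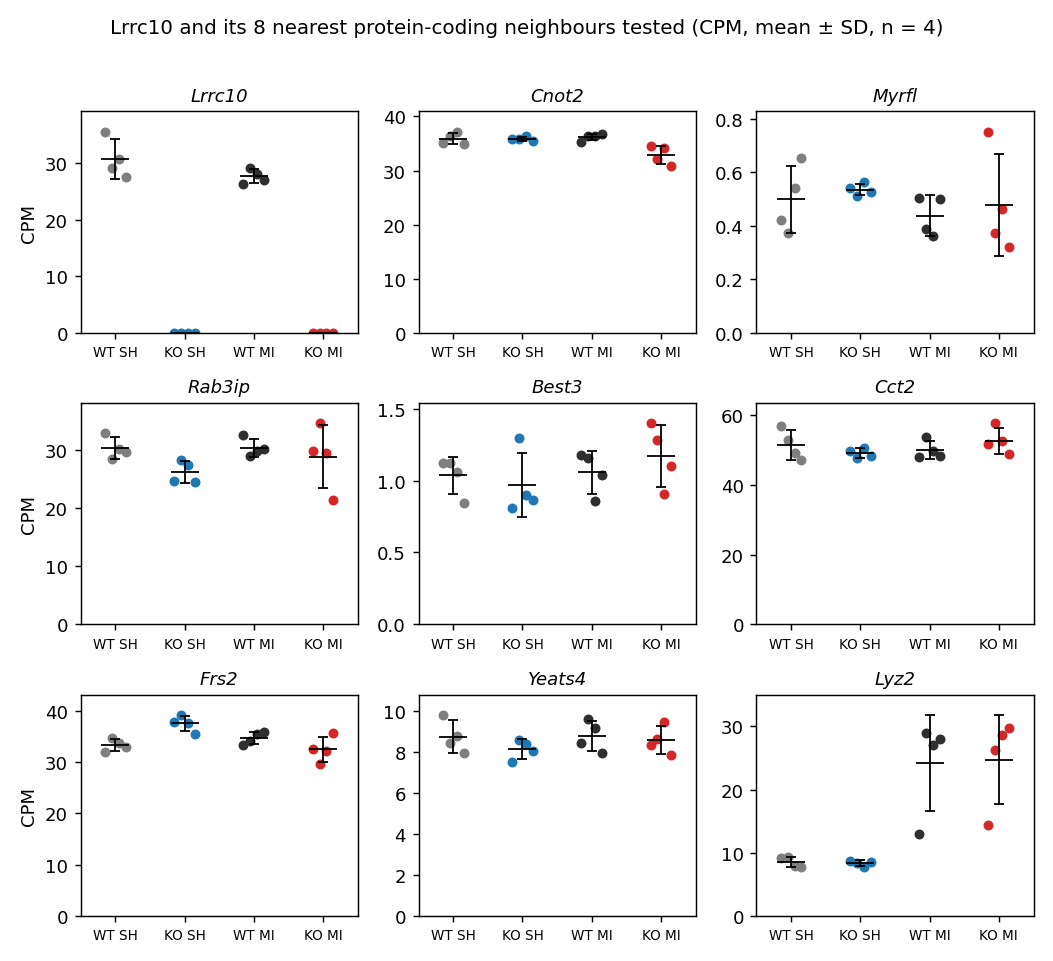
Levels of *Lrrc10* and its 8 nearest protein-coding neighbours tested in CPM (vertical axis, from 0) by group (horizontal axis). Points are libraries and bars the mean with the SD of 4 libraries. *Lrrc10* is at 0 in all 8 KO libraries, while *Cct2*, which ends 4223 bases away, lies between 47.3 and 57.8 CPM in all groups and *Lyz2* is higher in both MI groups.

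In sham hearts 1 of 73 members (1.37%) was called, against 5.01% of all genes tested and 4.73% of the other protein-coding genes of chromosome 10. In MI hearts 1 of 73 (1.37%) was called, against 1.73% of all genes and 0.946% of the other protein-coding genes of chromosome 10. No member was called in both comparisons, a class that held 0.888% of all genes. The share in sham hearts was under the background. In MI hearts it was near it and rested on 1 gene. It was 2.74% against 1.14% of all genes without WT MI replicate 1, 4.11% against 2.89% without KO MI replicate 7 and 2.74% against 2.19% with DESeq2.

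Without a minimum fold change, 6 members had an adjusted p under 0.1 in sham hearts (8.22%, background 12.3%) and 4 in MI hearts (5.48%, background 3.07%). They were *Wif1*, *Tbc1d15*, *Dyrk2*, *Frs2*, *Srgap1* and *Mon2* in sham, and *Slc16a7*, *Dyrk2*, *Mon2* and *Ppm1h* in MI. *Dyrk2* and *Mon2* passed in both with 1 direction each (2.74%, background 1.54%). KO and WT libraries did not overlap for 14 members in sham hearts (19.2%, background 18.5%) and for 7 in MI hearts (9.59%, background 6.47%). The same 4 genes (*Tbc1d15*, *Dyrk2*, *Ppm1h* and *Mon2*) were free of overlap in both comparisons and moved in 1 direction in each (5.48%, background 2.01%, and 2.32% of protein-coding genes). The 2 comparisons share no library, but the share rests on these 4 genes, of which *Ppm1h* and *Mon2* are near neighbours.

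The size of the differences did not fall steadily with distance. In sham hearts the median absolute log2 fold change was 0.104 for the 15 members under 1 Mb from *Lrrc10*, 0.223 for the 14 members from 1 to 2.5 Mb, 0.094 for the 18 members from 2.5 to 5 Mb, 0.0722 for the 14 members from 5 to 7.5 Mb and 0.142 for the 12 outermost members. At the middle of the class from 1 to 2.5 Mb stood *Mdm1*, *Cdc5lrt7* and *Cdc5lrt10*, each at 0.22. *Cdc5lrt7* and *Cdc5lrt10* have identical counts, at 0.124 CPM and an SE of 0.55. *Lgr5*, *Tspan8*, *Ptprr* and *Grip1* of this class also averaged under 1 CPM. The value from 1 to 2.5 Mb was 0.12 and 0.099 without WT SH replicates 3 and 4, and 0.125 and 0.129 without KO SH replicates 3 and 4. Other sham medians also moved by over 1.5 times, to 0.0546 and 0.0669 under 1 Mb without WT SH replicates 1 and 2, and to 0.123 and 0.124 from 5 to 7.5 Mb without WT SH replicate 4 and KO SH replicate 3. In MI hearts the medians in the same order were 0.0745, 0.0979, 0.0887, 0.0627 and 0.213. The first became 0.113 without WT MI replicate 1 and the third 0.0399 without KO MI replicate 2. The order of the distance classes thus depended on single libraries. The outermost members also had the largest median standard error, at 0.184 in sham and 0.179 in MI hearts. In the other classes it was at most 0.107 and 0.106. Over all members the median absolute log2 fold change was 0.108 in sham and 0.0958 in MI hearts. It was 0.151 and 0.102 for chromosome 10 beyond the window and 0.142 and 0.099 for the other chromosomes. The median signed log2 fold change of the members was -0.04 in sham and -0.01 in MI hearts.

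The called members lay outside the first 1 Mb. Both calls were above *Lrrc10*, *Wif1* at 3.989 Mb and *Slc16a7* at 8.174 Mb. Under 1 Mb, 12 of 15 members in sham and 13 of 15 in MI hearts had a 95% interval wholly within ± 0.5 on the log2 scale. The exceptions were *Myrfl* and *Best3* in both comparisons and *Lyz2* in sham hearts. Over the whole window such intervals were found for 50 members in sham and 49 in MI hearts, and every one of these belonged to the 59 members whose mean reached 1 CPM. For the 14 members under 1 CPM a difference of this size was not excluded.

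The members at the outer ends were *Lin7a*, a scaffold gene of cell junctions, and *Mettl1*, which methylates tRNA. *Lin7a* was at 1.5, 1.26, 1.34 and 1.06 CPM in WT SH and 0.992, 0.864, 0.814 and 0.892 CPM in KO SH. The libraries did not overlap, and the log2 fold change of -0.54 (SE 0.19) had an adjusted p of 0.1004, just short of a call. It was called in 10 of 25 alternative fits. In MI hearts its log2 fold change was -0.07 (SE 0.19). *Mettl1* had log2 fold changes of -0.05 (SE 0.20) and 0.16 (SE 0.19).

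**Figure D2:**
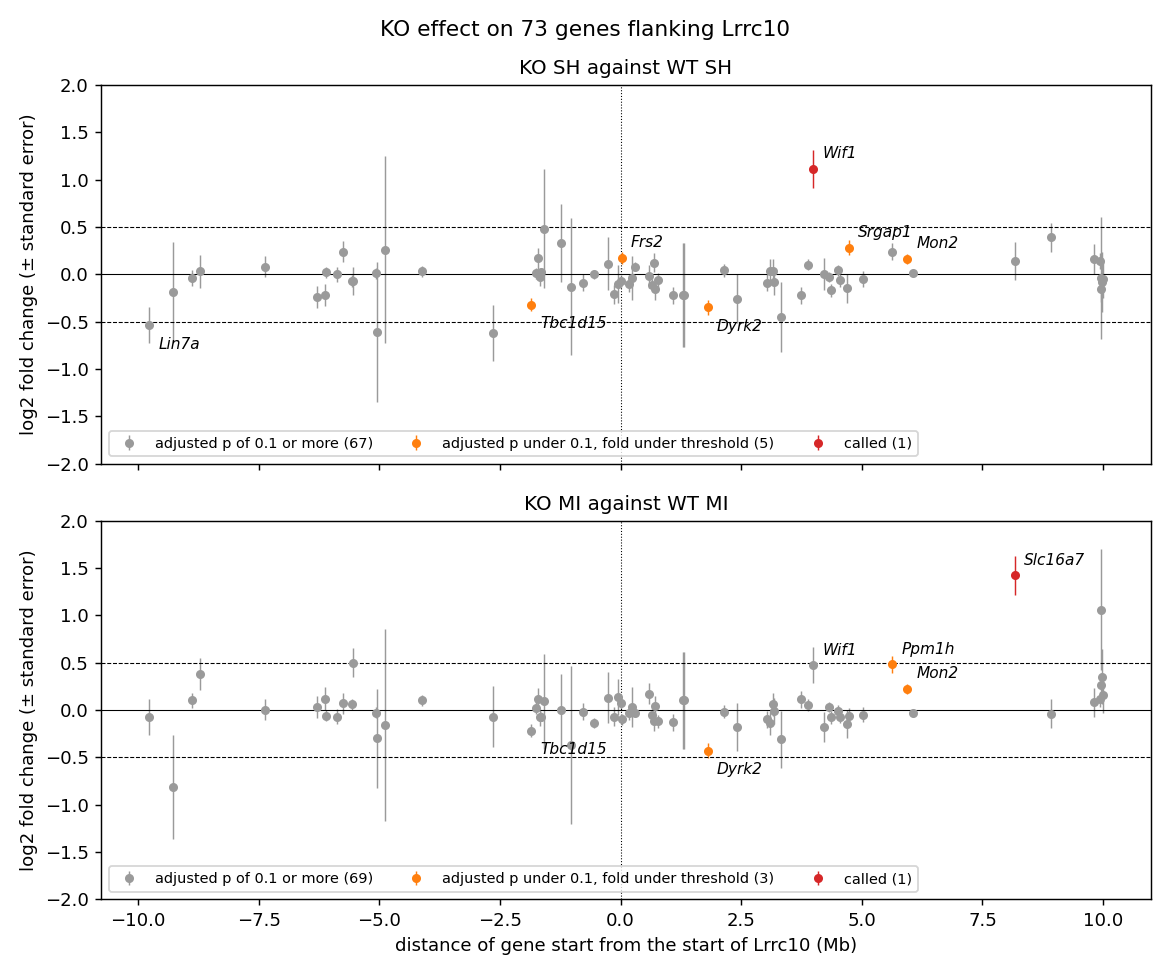
Log2 fold change of KO against WT (vertical axis, with standard error) of the 73 flanking genes by the distance of their start from that of *Lrrc10* in Mb (horizontal axis), for sham hearts (top) and MI hearts (bottom). Dashed lines mark ± 0.5. Red marks the 1 called gene of each panel, *Wif1* at 3.989 Mb and *Slc16a7* at 8.174 Mb, and orange the genes with an adjusted p under 0.1 but a smaller fold change.

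*Wif1*, a secreted inhibitor that binds Wnt proteins, was higher in KO SH. It was at 1.31, 1.42, 1.14 and 1.6 CPM in WT SH and at 2.23, 3.21, 3.05 and 3.38 CPM in KO SH. The lowest KO SH library was above the highest WT SH library. The log2 fold change was 1.11 (SE 0.20, 0.69 to 1.53, adjusted p = 0.00289), and it stayed between 1.04 and 1.23 and past the threshold in all 25 alternative fits. In MI hearts WT levels were 2.12, 1.74, 1.75 and 1.24 CPM and KO levels 2.72, 2.26, 1.64 and 2.92 CPM. The groups overlapped and the log2 fold change of 0.47 (SE 0.19) had an adjusted p of 0.307. The effect in MI minus that in sham was -0.65 (SE 0.28, unadjusted p = 0.0327, adjusted p = 0.321), so the effects were not shown to differ after adjustment. In this bulk RNA, more RNA per cell and more cells of the type that expresses a gene cannot be told apart.

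Markers of other cell types were also called between KO and WT. In sham hearts, where 5.01% of all genes were called, 3 of 6 neutrophil genes were higher in KO (list median 1.04 on the log2 scale), and 3 of 10 macrophage (median -0.33) and 1 of 5 mural genes (median -0.13) were lower. The neutrophil sum was 1.18 to 1.88 CPM in WT SH and 3.11 to 3.96 CPM in KO SH, and the mural sum (most abundant gene *Rgs5*) 756 to 863 and 658 to 715 CPM, both without overlap. The endothelial sum (most abundant gene *Kdr*) did not overlap either, at 932 to 956 and 855 to 903 CPM, with 0 of 8 genes called. In MI hearts, where 1.73% of all genes were called, 1 of 4 tested erythroid (median 0.55) and 1 of 5 tested skeletal muscle genes (median 2.51) were higher in KO, and both sums overlapped between KO and WT. *Ckm* was the most abundant gene of the skeletal muscle list, so the overlap of that sum does not speak for the less abundant genes. The part of these markers in the differences of *Wif1* and *Slc16a7* was not tested.

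*Slc16a7*, which encodes the monocarboxylate transporter MCT2 for lactate, pyruvate and ketone bodies, was higher in KO MI. Its levels were 22.1, 14.8, 13.8 and 7.09 CPM in WT SH, 15.2, 17.0, 16.5 and 15.5 in KO SH, 5.40, 6.07, 5.65 and 6.34 in WT MI, and 16.1, 15, 14.3 and 17.2 in KO MI. The 4 WT MI libraries were the lowest of all 16, and the WT SH libraries were the most spread. KO MI exceeded WT MI by 1.42 on the log2 scale (SE 0.21, 0.98 to 1.86, adjusted p = 0.00125), and this call held in all 25 alternative fits. In sham hearts the log2 fold change was 0.14 (SE 0.20, adjusted p = 0.725), and it was -0.08 without WT SH replicate 4.

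Within WT, *Slc16a7* fell by 1.31 on the log2 scale after MI (SE 0.21, adjusted p = 0.00275). Within KO the log2 difference was -0.03 (SE 0.20, adjusted p = 0.944). These contrasts reuse the WT MI and KO MI libraries above. The difference between the KO effects was 1.27 (SE 0.29, unadjusted p = 0.000348) with an adjusted p of 0.146, and it was called in 5 of 24 alternative fits, with adjusted p from 0.00119 without WT SH replicate 4 to 0.264 without KO SH replicate 1. The cardiomyocyte marker sum was 41800, 34500, 35800 and 30200 CPM in WT SH replicates 1 to 4, highest and lowest in the same libraries as *Slc16a7*. It ranged from 29500 to 30300 CPM in KO SH. The range was 28700 to 30300 CPM in WT MI and 27100 to 30000 CPM in KO MI. Other sums also separated WT MI from WT SH without overlap. The fibroblast sum was higher (2670 to 3110 against 2200 to 2570 CPM). The endothelial (774 to 874 against 932 to 956 CPM) and mural sums (624 to 741 against 756 to 863 CPM) were lower. Macrophage and neutrophil sums, given below, were higher. The part of these sums in the result was not tested.

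No member was called for the difference between the KO effects (background 0.0248%) in edgeR. This background depended on single libraries. Without KO MI replicate 7, 4.18% of all genes and 2 members (2.74%) were called. Without WT SH replicate 4, the calls were 0.794% of all genes and 1 member (1.37%). DESeq2 called 1 member (1.37%, against 1.05% of all genes), and 7 members had an unadjusted p under 0.05 in edgeR (9.59%, background 13.6%), namely *Phlda1*, *Frs2*, *Msrb3*, *Wif1*, *Srgap1*, *Slc16a7* and *Tsfm*.

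The 4 genes without overlap in either surgery lie on both sides of *Lrrc10*. Of these, *Dyrk2* and *Mon2* had an adjusted p under 0.1 in both comparisons, *Tbc1d15* only in sham and *Ppm1h* only in MI hearts. *Dyrk2*, a kinase that phosphorylates p53 and also acts in protein degradation, was at 205, 187, 182 and 181 CPM in WT SH and at 133, 160, 154 and 144 CPM in KO SH. In MI hearts it was at 191, 154, 164 and 185 CPM in WT and 138, 118, 120 and 138 CPM in KO. Every KO library was below every WT library of the same surgery. The log2 fold changes were -0.35 (SE 0.08, adjusted p = 0.0119) and -0.43 (SE 0.08, adjusted p = 0.00639).

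*Mon2*, which acts in traffic between endosomes and the Golgi, was at 61.8, 67.3, 62.6 and 61.4 CPM in WT SH and 73, 69.9, 70.9 and 69.0 CPM in KO SH. MI levels were 61.3, 54.2, 57.4 and 56.6 CPM in WT and 66.5, 65.9, 70.8 and 64.7 CPM in KO. All KO libraries were above the WT libraries of the same surgery, by 0.16 (SE 0.05, adjusted p = 0.054) and 0.22 (SE 0.05, adjusted p = 0.0231) on the log2 scale. The adjusted p stayed under 0.1 in 19 of 25 alternative fits in sham hearts (up to 0.15) and in 24 of 25 in MI hearts (up to 0.139).

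*Ppm1h*, a phosphatase that acts on Rab GTPases, is a near neighbour of *Mon2* and was chosen after its values were seen. It was at 12.2, 10.9, 12.4 and 10.3 CPM in WT SH and 14.1, 12.9, 13.1 and 14.0 CPM in KO SH. MI levels were 9.59, 9.28, 9.13 and 11.4 CPM in WT and 15.5, 12.2, 14.4 and 12.8 CPM in KO. Again no libraries overlapped. The log2 fold change was 0.24 (SE 0.09, adjusted p = 0.11) in sham and 0.48 (SE 0.09, adjusted p = 0.00778) in MI hearts, the latter just under the fold threshold and past it in 4 of 25 alternative fits.

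*Tbc1d15*, a GTPase-activating protein for Rab7, was at 20.6, 22.3, 20.2 and 20.3 CPM in WT SH and 15.9, 18.7, 14.5 and 17.9 CPM in KO SH. It was at 19.9, 18.6, 18.8 and 20 CPM in WT MI and 16.7, 16.3, 16 and 17.3 CPM in KO MI. KO was the lower group in both, by log2 values of -0.32 (SE 0.07, adjusted p = 0.0136) and -0.22 (SE 0.07, adjusted p = 0.15). *Srgap1*, a GTPase-activating protein of the Slit-Robo pathway, differed in sham hearts at 0.28 (SE 0.08, adjusted p = 0.0456) and stood at -0.06 (SE 0.08, adjusted p = 0.846) in MI hearts.

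**Figure D3:**
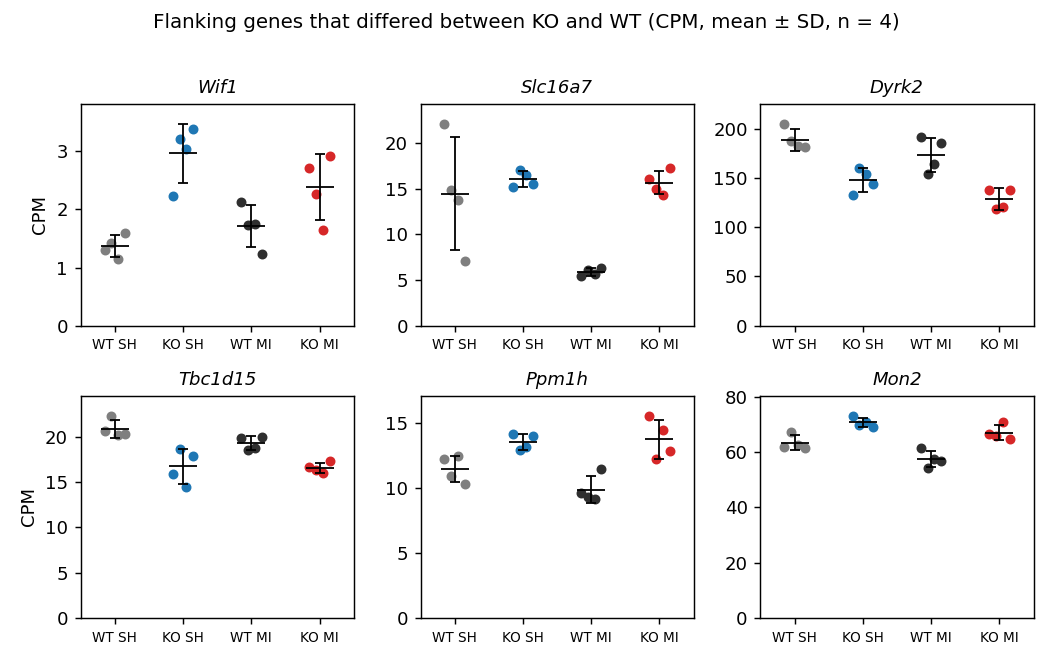
Levels in CPM (vertical axis, from 0) of 6 flanking genes by group (horizontal axis). Points are libraries and bars the mean with the SD of 4 libraries. KO SH lies above WT SH for *Wif1*, WT MI lies under all other groups for *Slc16a7* (5.40 to 6.34 CPM), and *Dyrk2*, *Tbc1d15*, *Ppm1h* and *Mon2* show no overlap between KO and WT in either surgery.

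Across the 73 members, KO effects in sham and MI hearts had the same sign for 40 genes (54.8%, background 54.2%). As a description across genes, which are not independent and share depth and expression level between the comparisons, Pearson's r of the effects was 0.33 and Spearman's rho 0.30. Over 14590 tested protein-coding genes they were 0.33 and 0.19. The correlation of the flanking genes was thus close to that of protein-coding genes in general.

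**Figure D4:**
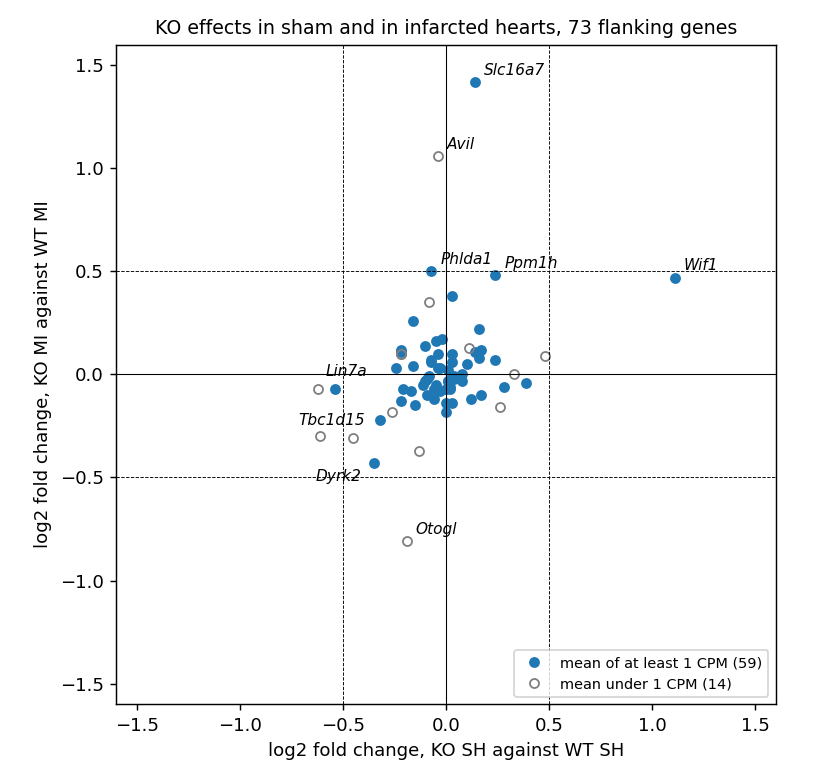
Log2 fold change of KO against WT in sham hearts (horizontal axis) and in MI hearts (vertical axis) of the 73 flanking genes, 1 point a gene. Filled points are the 59 genes whose mean reached 1 CPM and open points the 14 under it. Most genes lie near 0 on both axes, *Wif1* lies farthest right (1.11, and 0.47 in MI hearts), *Slc16a7* (1.42) and the low gene *Avil* (1.06, SE 0.64, not called) lie high on the MI axis, and *Dyrk2*, *Tbc1d15* and *Ppm1h* lie along the diagonal. Dashed lines mark ± 0.5.

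The 48 members on 10 role lists held both KO calls, where 5.01% of all genes were called in sham and 1.73% in MI hearts. With at most 8 genes tested on a list, those shares come to under 1 gene a list. The 8 genes of RNA processing, export and translation had 0 calls in either KO comparison, with median log2 fold changes of -0.01 and -0.05. *Cpsf6*, of mRNA 3' end processing, had 0.08 (SE 0.05) and -0.03 (SE 0.05), and *Nup107*, a nuclear pore scaffold protein, -0.16 (SE 0.11) and 0.04 (SE 0.11). None of the 4 genes of protein folding and degradation was called (medians -0.03 and -0.03). *Mdm2*, the ubiquitin ligase of p53, stands 0.644 Mb from *Lrrc10* and had -0.11 (SE 0.06) and -0.05 (SE 0.06). *Usp15*, a deubiquitinase, had 0.01 (SE 0.04) and -0.03 (SE 0.04).

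Of 7 tested genes of the p53 axis and cell cycle, 0 were called between KO and WT (medians -0.10 and 0.03). *Phlda1*, an apoptosis-related gene, was nearest to a call in MI hearts, at 0.50 (SE 0.15, adjusted p = 0.1152). Of 8 small GTPases and their regulators, 0 were called (medians -0.03 and -0.08), although *Tbc1d15*, *Srgap1* and *Mon2* above belong to them. *Rap1b*, a Ras-related GTPase, had -0.06 (SE 0.07) and -0.12 (SE 0.07). The 2 tested receptor tyrosine phosphatases, with *Ptprb* of endothelial cells the most abundant member of all at 252 CPM, had 0 calls. Its log2 fold changes were -0.09 (SE 0.09) and -0.02 (SE 0.09).

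The 6 tested genes of growth factor and Wnt signalling included 1 call in sham hearts (*Wif1*; background 5.01%) and 0 in MI hearts (medians 0.28 and -0.07). *Lgr5*, a receptor for R-spondins, averaged only 0.176 CPM and had 0.48 (SE 0.63) and 0.09 (SE 0.50). The 6 tested genes of membrane transport and other membrane proteins (*Best3*, *Slc16a7*, *Slc35e3*, *Tmem19*, *Tmbim4* and *Cpm*) included 0 calls in sham and 1 in MI hearts. The call was *Slc16a7* (background 1.73%), and the medians were 0.08 and 0.13. The 5 innate immune and lysosomal genes (medians -0.03 and -0.01), the 4 of nuclear envelope and chromatin (-0.09 and 0.01) and the 1 tested muscle gene, *Csrp2* (-0.22 and 0.12), had 0 calls between KO and WT. All members tested had a median of -0.04 and -0.01.

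*Cdc5lrt7* and *Cdc5lrt10* had identical counts in every library. Their values (0.124 CPM each) are uncertain, and both are counted among the 73 members and among those from 1 to 2.5 Mb although they repeat each other.

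Between MI and sham hearts 3 members were called in WT (4.11%, background 2.78%) and 6 in KO (8.22%, background 7.42%). In WT, *Lyz2* and *Hmga2* rose (2.74%, background 2.13%) and *Slc16a7* fell (1.37%, background 0.645%). In KO, *Lyz2*, *Hmga2*, *E2f7*, *Csrp2*, *Pawr* and *Glipr1* rose, where 5.31% of all genes rose, and none fell. The calls in one genotype and not in the other were not shown to differ between genotypes in the main edgeR fit, where no member passed that test. *Slc16a7* passed it in 5 of 24 alternative fits.

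*Lyz2* was at 9.23, 9.30, 7.89 and 7.74 CPM in WT SH and at 12.9, 29.0, 27.1 and 28.0 CPM in WT MI. It was at 8.75, 8.40, 7.72 and 8.47 CPM in KO SH and at 14.4, 26.2, 28.6 and 29.7 CPM in KO MI. All MI libraries were above all sham libraries, and replicate 1 was the lowest of each MI group. The log2 fold change was 1.51 (SE 0.22, adjusted p = 0.00152) in WT and 1.57 (SE 0.22, adjusted p = 0.000753) in KO. Only 0.230 Mb from *Lrrc10*, the responses of the 2 genotypes differed by 0.06 (SE 0.31), within their error.

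Markers of the cells that make lysozyme moved with it. The summed level of 10 macrophage genes, of which *Mrc1* was the most abundant, was 86.3, 114, 96.1 and 102 CPM in WT MI and 71.5, 89.0, 137 and 89.8 CPM in KO MI, against 64.9 to 76.9 CPM in WT SH and 60.5 to 67.4 CPM in KO SH. After MI, 1 of the 10 was called higher in WT and 8 in KO, where 2.13% and 5.31% of all genes were. None of the 10 was called for the difference between genotypes. The 6 neutrophil genes, with *S100a9* the most abundant, summed to 6.52, 21.8, 14.1 and 18.5 CPM in WT MI and 6.67, 8.49, 14.8 and 12.4 CPM in KO MI, against 1.18 to 1.88 CPM in WT SH and 3.11 to 3.96 CPM in KO SH. Of these, 6 were called higher in WT (background 2.13%) and 4 in KO (background 5.31%), and none was called for the difference between genotypes. Replicate 1 of each MI group, the lowest for *Lyz2*, was also the lowest for both sums. The part of these cells in the *Lyz2* difference was not tested.

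*Hmga2*, an architectural chromatin protein of fetal and proliferating cells, was at 0.461, 0.267, 0.686 and 0.169 CPM in WT SH and 0.967, 0.753, 1.08 and 1.09 CPM in WT MI. KO levels were 0.203, 0.405, 0.355 and 0.184 CPM in sham and 0.732, 0.906, 0.636 and 0.856 CPM in MI hearts. MI and sham libraries did not overlap in either genotype. It rose by 1.30 (SE 0.33, adjusted p = 0.0404) in WT and 1.44 (SE 0.35, adjusted p = 0.0129) in KO on the log2 scale. In WT the call was lost without WT SH replicate 2 (adjusted p = 0.112).

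The other genes called in KO had smaller responses or low levels. *E2f7*, an atypical E2F repressor of the cell cycle, was at 8.36, 7.78, 8.01 and 7.95 CPM in KO SH and 11.2, 15.4, 10.9 and 10.3 CPM in KO MI, a log2 fold change of 0.57 (SE 0.12, adjusted p = 0.00612). Without KO MI replicate 2, the highest library, it was 0.43 and no longer called. In WT it was 0.30 (SE 0.12, adjusted p = 0.202). *Csrp2*, a LIM protein of smooth muscle, was at 10.3, 10, 11.5 and 10.8 CPM in KO SH and 14.5, 20.6, 16.9 and 15.3 CPM in KO MI, with 0.66 (SE 0.12, adjusted p = 0.00284) in KO and 0.31 (SE 0.12, adjusted p = 0.183) in WT. For both genes every KO MI library was above every KO SH library.

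*Pawr*, a pro-apoptotic protein, was at 2.91, 3.21, 3.05 and 2.78 CPM in KO SH and 3.82, 6.10, 5.30 and 4.60 CPM in KO MI. Its log2 fold change was 0.73 (SE 0.17, adjusted p = 0.0107) in KO and 0.38 (SE 0.17, adjusted p = 0.264) in WT. *Glipr1*, a secreted-protein family gene also made by myeloid cells, was at 0.113, 0.0540, 0.125 and 0.0525 CPM in KO SH and 0.142, 0.512, 0.347 and 0.348 CPM in KO MI. These values are near the limit of a few counts. The log2 fold change of 1.90 (SE 0.65) had an adjusted p of 0.0627. *Glipr1* was called in 18 of the alternative fits and was not tested in the fit that needed 10 counts in every library. In WT its log2 fold change was 1.59 (SE 0.59, adjusted p = 0.166), and without WT SH replicate 1 it was 2.92 and called (adjusted p = 0.0304).

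Markers of other cell types were also called higher in KO MI than in KO SH. Of all genes, 5.31% were called higher and 7.42% in either direction. The called markers were 3 of 8 fibroblast, 2 of 5 mural, 3 of 4 tested erythroid and 3 of 5 tested skeletal muscle genes. The list medians were 0.26, -0.17, 1.14 and 3.06 on the log2 scale. The mural median was below 0 although its 2 called genes were higher, and 1 of 8 cardiomyocyte genes was called lower (median -0.13). The fibroblast sum (most abundant gene *Col3a1*) was 2050, 2210, 2260 and 2220 CPM in KO SH and 2820, 3120, 3160 and 2850 CPM in KO MI. The sums overlapped between these groups for mural (658 to 715 and 652 to 732 CPM), erythroid (27.9 to 34.6 and 21.8 to 88.5 CPM) and skeletal muscle genes (299 to 334 and 258 to 362 CPM). The skeletal muscle sum gives most weight to *Ckm*, its most abundant gene, and does not show the list median of 3.06. The part of these markers in the rises of *E2f7*, *Csrp2*, *Pawr* and *Glipr1* was not tested.

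**Figure D5:**
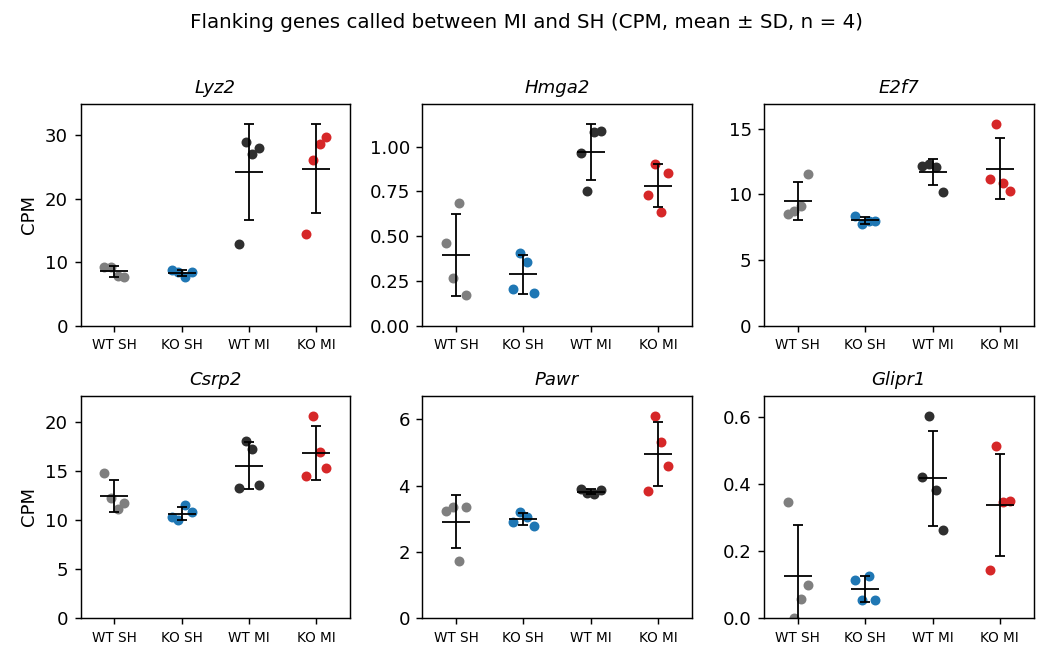
Levels in CPM (vertical axis, from 0) by group (horizontal axis) of the 6 flanking genes that rose after MI in KO hearts. Points are libraries and bars the mean with the SD of 4 libraries. *Lyz2* and *Hmga2* are higher in MI than in sham libraries of both genotypes with no overlap, and *Glipr1* stays at or under 0.603 CPM.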

How the data were processed

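RNA was measured in ventricles of 16 mice, 4 per group, and groups were taken from the labels. The authors trimmed adapters (Skewer), aligned paired strand-specific reads of 150 bases to GRCm39 (STAR) and estimated expression with RSEM, according to the methods, while the submitters' processing notes name cutadapt, HISAT2 and RSEM. The deposited table holds RSEM expected counts as whole numbers, not normalized, for 51912 gene identifiers, and RSEM splits reads shared by near-identical genes. Totals ranged from 33783874 to 57470159, and 3 counts were taken as the floor, which covers counting error only. Positions and biotypes came from GENCODE M39, which matched 47772 identifiers. Unmatched identifiers held 0.57% to 0.786% of a library.

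Genes with at least 10 summed counts in each group were tested with edgeR (version 4.0.16, R version 4.3.3), TMM scaling and a quasi-likelihood fit of all 16 libraries with 1 coefficient per group. Standard errors and 95% intervals are those of the fit. Calls needed a p under 0.1 after Benjamini-Hochberg adjustment and a log2 fold change of 0.5 or more in size. Single genes were also compared by exact permutation (two-sided) of log2(CPM + 0.05). Scripts were tested on simulated data. That replicates are separate animals follows from the methods; no batch is labelled. Named genes were the 4 nearest members on each side, the outermost, those called, and up to 4 values per role list. The members, lists and rule were chosen with earlier results of these data known. Alternatives were DESeq2 (version 1.42.0), its size factors, other count filters, a robust fit, a fit of the compared libraries, a replicate block, *Xist* as a covariate, other thresholds and bins, and leaving out each library. Promoter windows of 250 bases were read from GRCm39 before the start of each gene's canonical transcript. Apart from *Lrrc10*, genes that the rule left out are not reported here.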

Additional observations from a re-analysis of the deposited data

Results flagged for a closer look

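In 4 of 88 groups of 4 libraries tested for the 22 named genes (4.55%), 1 library stood far from the other 3. Chance gives about 1 in 20. *Lyz2* was at 12.9 CPM in WT MI replicate 1 and between 27.1 and 29.0 CPM in the other WT MI libraries. *Srgap1* was at 17.7 CPM in WT SH replicate 1, against 21.5 to 21.6 CPM in the others, and without this library its sham log2 fold change was 0.21. *E2f7* was at 10.2 CPM in WT MI replicate 4, against 12.1 to 12.3 CPM. *Pawr* was at 1.72 CPM in WT SH replicate 3, against 3.23 to 3.34 CPM, and without it the WT response to MI was 0.21 on the log2 scale.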

How the results depend on the processing

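The calls of *Wif1* in sham and of *Slc16a7* in MI hearts held in every alternative fit, and counts near the thresholds moved. In sham hearts 2 members were called with DESeq2 size factors, with filterByExpr, with 10 counts in every library and with only the compared libraries, each adding *Lin7a* (2.74%, 2.99% of 67 tested, 3.23% of 62 tested and 2.74%, against 5.04%, 5.75%, 5.71% and 5.94% of all genes). In MI hearts 2 were called with 10 counts in every library and with DESeq2, each adding *Phlda1* (3.23% of 62 tested and 2.74% of 73, against 1.98% and 2.19% of all genes tested). Without a minimum fold change 6 members passed in sham (8.22%, all genes 12.3%) and 4 in MI hearts (5.48%, all genes 3.07%), 2 in both, 5 between WT MI and WT SH (6.85%, all genes 5.31%) and 13 between KO MI and KO SH (17.8%, all genes 17.5%). The difference between the KO effects had 1 call with no count filter and 1 with DESeq2 (1.37%, against 0.118% and 1.05% of all genes). The median from 1 to 2.5 Mb in sham hearts was 0.102 with other bins. *Cnot2* in sham hearts changed only in sign, from -0.00 to 0.00, with no filter and with 10 counts in every library. The causes of these shifts were not tested. Leaving out 1 library gave 1 to 2 calls in sham, 1 to 3 in MI hearts (3 without KO MI replicate 7) and 0 to 2 for the difference, where the shares of all genes were 3.3% to 6.11%, 1.14% to 2.89% and 0.00992% to 4.18%, and medians of 0.099 to 0.32 from 1 to 2.5 Mb in sham hearts.

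Replicate numbers did not pair KO with WT libraries of the same surgery, and sham with MI libraries were not checked. Deviations of same-numbered libraries correlated at -0.038, -0.006, -0.029 and -0.021 in sham and 0.055, 0.112 and 0.013 in MI hearts. With a replicate block, 1 member was called in sham, 2 in MI hearts (adding *Ppm1h*; 2.56% of all genes) and 2 for the difference (*Slc16a7* and *Tsfm*, 2.74%, against 3.42% of all genes), *Rab3ip* in MI hearts was at 0.03 and *Lyz2* at -0.06. KO MI replicate 7 had no partner in that fit.

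Small effects changed sign when 1 library was left out. On the log2 scale *Cnot2* ranged from -0.01 to 0.02, *Lyz2* from -0.08 to 0.00, *Myrfl* from -0.00 to 0.27, *Mettl1* from -0.17 to 0.06 and *Slc16a7* from -0.08 to 0.43 in sham hearts. In MI hearts *Rab3ip* ranged from -0.17 to 0.05, *Myrfl* from -0.17 to 0.27, *Yeats4* from -0.09 to 0.01, *Lyz2* from -0.18 to 0.22, *Lin7a* from -0.18 to 0.07 and *Srgap1* from -0.14 to 0.00. *Slc16a7* in KO MI against KO SH ranged from -0.08 to 0.01. Depth limits the 14 members under 1 CPM, whose intervals all reach past the fold threshold.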

Other observations

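Genes other than protein-coding ones lie between the flanking genes, and 36 of them were tested in the window. These were chosen after their values were seen. In sham hearts 4 of 36 (11.1%) were called between KO and WT, against 7% of 5569 such genes, and in MI hearts 2 of 36 (5.56%), against 1.92%.

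*Gm10747*, a lncRNA on the same strand as *Lrrc10* that ends 232 bases before it (chr10:116878296-116881013), was lower in KO in both surgeries. It was at 1.61, 1.74, 1.06 and 0.798 CPM in WT SH and 0.0902, 0.162, 0.104 and 0.157 CPM in KO SH. It was at 0.862, 0.732, 0.922 and 0.804 CPM in WT MI and 0.0610, 0.177, 0.154 and 0.134 CPM in KO MI. All KO libraries were under all WT libraries, and from 3 to 9 counts remained in each KO library. The log2 fold change was -3.34 (SE 0.33, adjusted p = 7.8e-06) in sham and -2.63 (SE 0.33, adjusted p = 0.000242) in MI hearts. The extent of the targeted allele is not given in the sources used here, so removal or disruption of *Gm10747* by that allele and lower expression cannot be told apart. Reads beyond an annotated end of either gene cannot be seen in these counts.

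In sham hearts the other called genes were *Gm47337* (1.54, SE 0.32, adjusted p = 0.00691), *Gm47339* (1.24, SE 0.34, adjusted p = 0.0312) and *Gm48804* (0.52, SE 0.15, adjusted p = 0.0376), all higher in KO SH and all annotated as transcripts to be experimentally checked. None was called in MI hearts. There *Gm47337* (0.21, SE 0.30) and *Gm47339* (0.34, SE 0.31) overlapped between KO and WT. *Gm48804* was lower in every KO MI library than in every WT MI library (-0.41, SE 0.14, adjusted p = 0.201 in edgeR). *Gm48804* lies within the span of *Srgap1* on the same strand, so their reads may not be told apart. In MI hearts the lncRNA *4933440J02Rik* had a log2 fold change of 2.16 (SE 0.56, adjusted p = 0.0495). It had only 0 to 5 counts in the WT MI libraries and 6 to 18 in the KO MI libraries, so the size of this change is uncertain.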
